A study of Danio rerio with 186 samples.

Results

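The insulin gene ins (ENSDARG00000035350) was followed through 186 single cells of the zebrafish pancreas, as 1 of 31953 genes in the count table. It was taken by its gene name in the table, and its level was read in each cell of 3 sort gates. All fish were 30 days post fertilization, grew under normal conditions and carried both transgenes: Tg(ins:BB1.0L), in which the insulin promoter drives the reporter, and TgBAC(sst1.1:memEGFP), in which sst1.1, a somatostatin gene, drives a membrane-bound EGFP. The gates were ins+ (60 cells), sst1.1+ ins+ (60 cells) and sst1.1+ (66 cells). The sample titles carry a number that is read here as a plate. The ins+ cells came from plate 3 (33 cells) and plate 4 (27 cells), the sst1.1+ ins+ cells from plate 3 only and the sst1.1+ cells from plate 4 only. Fish are not named in the labels. Each gate of a plate therefore counts as 1 sample without replicates, and no difference between gates was tested. The gates were set on fluorescence driven by the ins and sst1.1 regulatory sequences, so a difference in ins between gates is what the sort selected for and is given as a description.

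Insulin is the hormone of beta cells that lowers blood glucose. It is made as a precursor on ribosomes at the endoplasmic reticulum, cut by the prohormone convertases in the secretory granule and released when glucose rises. Somatostatin is made by delta cells and holds back the release of insulin and other hormones. Fluorescent proteins can outlast mRNA, so a reporter gate need not match the hormone mRNA at the time of the sort.

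The level of a gene is given in CPM, its reads per 1e6 gene reads of the cell, with spike-in RNAs left out. Cells with at least 500 detected genes and 50000 gene reads were kept: 32 and 24 ins+ cells of plates 3 and 4, 57 sst1.1+ ins+ cells and 61 sst1.1+ cells, 174 of 186 in all. Kept cells held 84778 to 895868 gene reads. Intervals of medians and shares are exact binomial intervals at 95%, which cover only the drawing of cells or reads; the library has no molecular identifiers, so PCR copies of 1 molecule count as separate reads.

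In the median ins+ cell 40.6% (plate 3) and 37.5% (plate 4) of all gene reads came from ins. On plate 3 the lowest cell held 172152 CPM, the median cell 406364 CPM (interval 367813 to 434677) and the highest 507961 CPM. On plate 4 these values were 182040, 375017 (360063 to 413225) and 444285 CPM. The coefficient of variation across cells was 18.4% on both plates, for a share in which ins is itself a large part of the total. Per spike-in read, ins ran from 6.505 to 33.65 reads on plate 3 and from 6.023 to 24.94 on plate 4. The intervals of both medians overlap, and the median of plate 3 was 1.084 times that of plate 4. The gene had the most reads of any gene, uncorrected for length, in 32 of 32 ins+ cells of plate 3 and in 23 of 24 of plate 4.

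Of the 3 lowest ins+ cells of each plate, all those of plate 3 and 2 of plate 4 held many reads of another hormone. On plate 3 the lowest cell (well H3, 172152 CPM of ins) held 164191 CPM of sst1.2 and 73887 of sst2, both somatostatin genes. The next (G2, 220032 CPM) held 98999 CPM of sst1.2 and 90569 of sst2, and the third (H7, 272189 CPM) held 60025 CPM of gcga, a glucagon gene. On plate 4 the lowest cell (A1, 182040 CPM) held 194330 CPM of sst1.1, and the next (A5, 184271 CPM) held 110896 CPM of gcga and 56656 of gcgb. The third on plate 4 (A9, 290719 CPM) held 0.0567% of its reads in gcga, gcgb, sst1.2, sst2 and ghrl, the ghrelin gene. The fourth lowest cells, H8 of plate 3 at 323970 CPM and C3 of plate 4 at 319382 CPM, held 0.167% and 0.294% in these genes. Whether such wells held 1 cell or more was not tested.

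In sst1.1+ ins+ cells the ins level was lower and spread more widely. The lowest cell held 173.5 CPM, the median cell 202351 CPM (174106 to 236204) and the highest 415809 CPM, with a coefficient of variation of 46.2%. The median was 0.498 times that of the ins+ cells of the same plate. Of the 57 cells, 19 lay under the lowest ins+ cell of plate 3, 48 lay under the first quartile of those cells, and 2 lay above their median. The upper range of this gate therefore overlapped mainly with the lower range of the ins+ gate. On plate 3 that lower range was set by wells H3, G2 and H7 (172152, 220032 and 272189 CPM), rich in other hormones. The next ins+ cell of plate 3, H8, held 323970 CPM. The gene held at least 10% of gene reads in 52 of 57 cells (91.2%, Clopper-Pearson interval 80.7 to 97.1%) and had the most reads of any gene in 37 of them. The reads of ins and sst1.1 together took a median of 37.8% of gene reads in these cells, against 40.6% in ins+ cells of plate 3, so the lower ins share stood beside a median of 128368 CPM of sst1.1.

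The direction of this difference turned with the scale. Per spike-in read, the median was 14.97 ins reads in sst1.1+ ins+ cells (12.02 to 17.76) and 11.12 in ins+ cells of plate 3 (9.44 to 13.74), a ratio of 1.346 with overlapping intervals. The gene reads outside ins and sst1.1 were 45.49 and 16.35 per spike-in read, a ratio of 2.782. Relative to those other reads, ins stood at 0.462 times its ins+ level. The double-labelled cells thus held a lower share of ins among more reads per spike-in read. They also had more detected genes, with a median of 4999 against 2564 in ins+ cells of plate 3 and 3616 in the sst1.1+ gate. In the sst1.1+ cells of plate 4 the gene reads outside ins and sst1.1 were 30.63 per spike-in read. Whether wells of the double-labelled gate held 1 cell or more was not tested. The part of the number of detected genes in the ins values was not tested either.

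Rows of the plate mostly held 1 gate each. Row F of plate 3 held both, with 9 ins+ cells at 338370 to 466861 CPM (median 416109) and 3 sst1.1+ ins+ cells at 173.5, 48460 and 214950 CPM. In rows A to E, the sst1.1+ ins+ cells had row medians of 182779 CPM (row C) to 229901 CPM (row A). The 2 lowest cells of the gate were thus both in row F, and in this shared row every double-labelled cell lay under every ins+ cell.

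The sst1.1+ cells held little ins, yet none held 0 reads. The lowest cell held 43.7 CPM, the median cell 134.6 CPM (112 to 213.5) and the highest 10467 CPM. The median ins+ cell of plate 4 stood 2787-fold higher. All 61 cells had at least 5 ins reads, and 55 still did after each cell was thinned to 100000 gene reads (90.2%, 79.8 to 96.3%), with a median of 16 reads. In 1 cell ins passed 1% of gene reads and in 0 of 61 it passed 10%, for which the exact interval reaches 5.87% of cells. By summed reads ins ranked as number 154 among the genes of this gate. In row C of plate 4, which held both gates, 3 ins+ cells had a median of 372476 CPM and 8 sst1.1+ cells a median of 440.8 CPM.

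Much of the ins signal of the sst1.1+ gate came from few cells. Wells E4 and D4, with 5310 and 2936 ins reads, held 43.9% of the 18784 ins reads of the gate. Without them the summed level was 316.3 CPM in place of 549.4 CPM. A further 11 wells under the cell filter held 148424 to 179172 CPM of ins whatever their gate, among them 4 wells of the sst1.1+ gate. In the 11 wells ins stood at 1.435 to 1.77 reads per ghrl read, and in 20 of 61 sst1.1+ cells it stood at or under the top of that range. Background of this kind can therefore not be told apart from low ins expression in these cells.

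**Figure D1:**
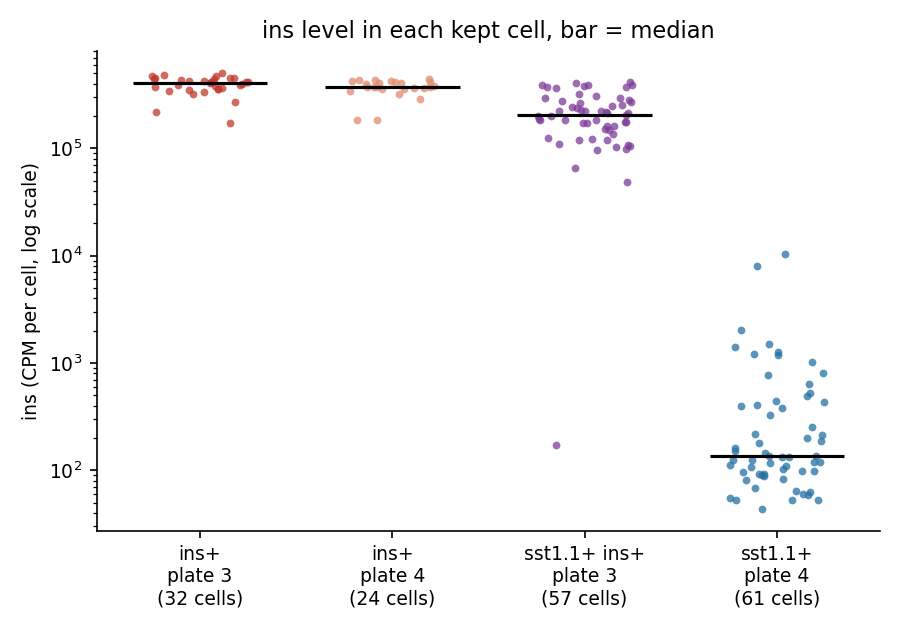
Each point is the ins level of a kept cell in CPM on a log axis, by gate and plate, and each bar is the median of the pool. The ins+ cells lie close to 406364 and 375017 CPM, the sst1.1+ ins+ cells spread around 202351 CPM with 1 cell at 173.5 CPM, and the sst1.1+ cells lie around 134.6 CPM with a pair at 8075 and 10467 CPM.

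Other genes of the insulin family were near absent. The second insulin gene of zebrafish, insb, had 1 read in all kept cells. The relaxin-family genes insl5a and insl5b had at most 0.402 and 1.90 CPM in any pool. The insulin receptor genes insra and insrb were found in few cells: insra had at least 5 reads in 9 of 32 (plate 3) and 2 of 24 (plate 4) ins+ cells, 18 of 57 sst1.1+ ins+ cells and 14 of 61 sst1.1+ cells, and insrb in 1, 0, 8 and 3 cells in that order. The zinc transporter gene slc30a8, which loads zinc for insulin crystals in mammalian granules, had 0 reads in ins+ cells of plate 3 and at most 1.83 CPM in any pool. Acinar markers had medians of 0 to 2.06 CPM per cell summed over 15 genes, with ptf1a at 0 reads in 3 of the 4 pools, although 1 sst1.1+ cell held 15408 CPM of them. Duct markers, 8 genes in all, had summed medians of 175.9 and 111.8 CPM in ins+ cells of plates 3 and 4, 341 CPM in the double-labelled gate and 658.4 CPM in the sst1.1+ gate, with a rho with ins of -0.17, -0.29, -0.19 and -0.12 in that order. Their part in the ins values was not tested. No endothelial or red blood cell marker had a read in ins+ cells.

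Genes that follow ins from cell to cell were sought within each pool by Spearman's rho between the ins reads and the reads of each gene, both per read outside ins and sst1.1. This total keeps ins and sst1.1 from diluting the other genes, while the other hormones stay in it. Every gene shares it with ins, and cells share plate and depth. The rho values describe these cells and carry no p. Genes with at least 5 reads in 50% or more of the cells of a pool were read, and a rho of 0.4 in size was used as the limit. Of 1264 genes in ins+ cells of plate 3 (32 cells), 5.85% had a rho of at least 0.4 and 0.791% of -0.4 or less. Of 1385 genes on plate 4 (24 cells) these shares were 4.04% and 1.73%. In sst1.1+ ins+ cells (2678 genes, 57 cells) they were 1.49% and 0.934%, and in sst1.1+ cells (1880 genes, 61 cells) 0% and 0.213%.

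In ins+ cells the genes that followed ins on both plates were almost all ribosomal protein genes. Of 1082 genes read in both pools, 13 (1.2%) had a rho of at least 0.4 in both, and 11 of these encode ribosomal proteins. The first by the smaller of both values was rpl32, of the large subunit, with 0.61 on plate 3 and 0.52 on plate 4. It was followed by rps29 of the small subunit (0.49 and 0.48), the stalk protein gene rplp1 (0.60 and 0.48), RPL37A (0.57 and 0.47), si:dkey-151g10.6 (0.56 and 0.46) and rpl35 (0.57 and 0.44). Next came rpl37 (0.65 and 0.44), rplp2 (0.59 and 0.42), rps3a (0.41 and 0.49) and rpl10a (0.41 and 0.44). The remaining genes were rps19, rpl26 and eef1a1l1, an elongation factor gene of translation. Just inside the first 10 stood rpl10a with a smaller rho of 0.412, and just outside it rps19 with 0.408.

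The whole list of cytosolic ribosomal protein genes had the same sign. It was matched by symbol, and the listed fau and rack1 were not found. It had 84 members in the table, and 80 were read in each pool. Such genes have near-identical copies in the genome, among which the counting could have split reads. On plate 3 rho was above 0 in 80 of 80 (all genes: 694 of 1264) and at least 0.4 in 45 (all genes: 5.85%). The median was 0.42 against 0.02 over all genes. On plate 4 rho was above 0 in 75 (all genes: 743 of 1385) and at least 0.4 in 16 (all genes: 4.04%). The median there was 0.28 against 0.02. Summed over the list, the ribosomal protein reads took 7.46 to 19.6% of the other reads per cell on plate 3 (median 15.3%) and 8.78 to 17.2% on plate 4 (median 13.9%). Their rho with ins was 0.62 and 0.43. Without the cell with the highest and the cell with the lowest ins level these became 0.56 and 0.26, and the genes past 0.4 in both pools went from 13 to 2, so the plate 4 values rest in part on these cells. Without cells with over 5% of reads in other hormones they were 0.53 and 0.35, and 5 genes passed 0.4 in both pools. With ins and sst1.1 counted in the total, rho was 0.28 and 0.09 and no gene passed in both. The number of detected genes had a rho of 0.03 and -0.20 with ins.

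**Figure D2:**
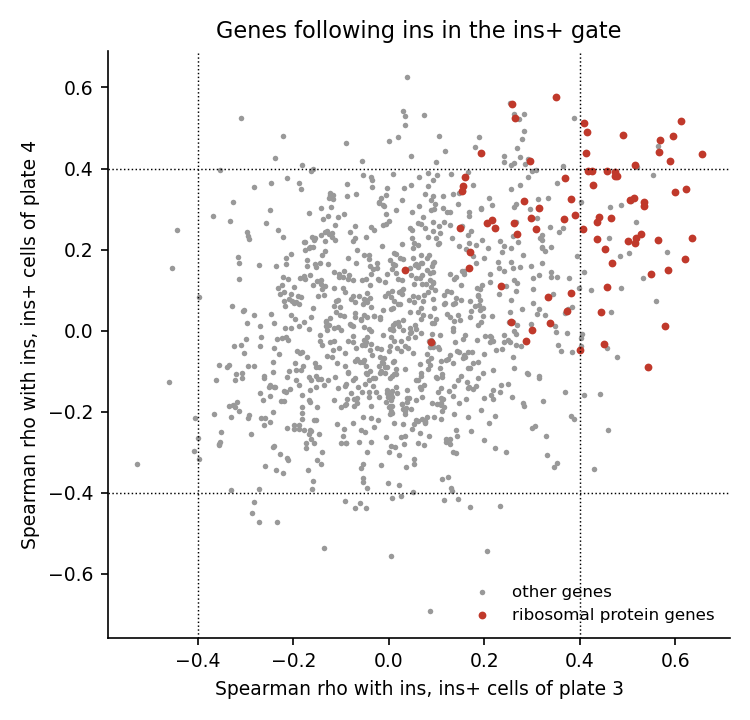
Each point is a gene read in both ins+ pools, placed by its Spearman rho with ins over 32 cells of plate 3 and over 24 cells of plate 4; dotted lines mark 0.4 in size. Of the 13 genes in the upper right corner 11 are ribosomal protein genes, and no gene lies in the lower left corner.

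No gene ran against ins at -0.4 in both ins+ pools (0%). The 10 with the most negative larger value were hsp70.3, sec61b, si:ch211-288g17.3, cox7a2a, si:ch73-341p18.7, fkbp2, cfl1, dkk3b, ppp1r10 and 1 further gene with a clone name. The heat shock gene hsp70.3 had -0.33 and -0.39, and sec61b, a subunit of the channel that takes secretory proteins into the endoplasmic reticulum, had -0.53 and -0.33. In sst1.1+ ins+ cells, which share no cells with these pools, 3 of the 10 were above 0, against 1288 of all 2678 genes, and dkk3b was lowest at -0.65.

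The ribosomal protein genes also followed ins in the double-labelled gate, and 0 of them passed 0.4 in the sst1.1+ gate. In the double-labelled gate rho was above 0 in 79 of 80 and at least 0.4 in 22 (all genes: 1.49%), with a median of 0.31 against -0.01. Of the 10 genes taken from the ins+ pools, 10 had a rho above 0 here (all genes: 1288 of 2678). Their values ran from 0.13 to 0.56 with a median of 0.29, and 2 passed 0.4. The summed ribosomal protein reads had a rho of 0.50 with ins, 0.41 without cells with over 5% of reads in other hormones, and 0.37 with all those hormones left out of the total. It was 0.18 with all gene reads as the total and 0.24 by Pearson's r of log2 values, and under both 0 of 80 genes passed 0.4. In sst1.1+ cells, where ins was low, 0 of 80 passed 0.4 (all genes: 0%) and 21 were above 0 (all genes: 661 of 1880). The summed reads had a rho of -0.08 there. In these cells the hormone that the ribosomal protein genes followed was sst1.1: its rho with their summed reads was 0.62 and 39 of 80 passed 0.4, against 3.78% of all genes. That rho was 0.39 with the other hormones left out of the total and -0.02 with sst1.1 counted in the total. In the double-labelled cells sst1.1 had a rho of 0.08 with the summed reads, and 0 of 80 passed 0.4 (all genes: 1.42%).

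**Figure D3:**
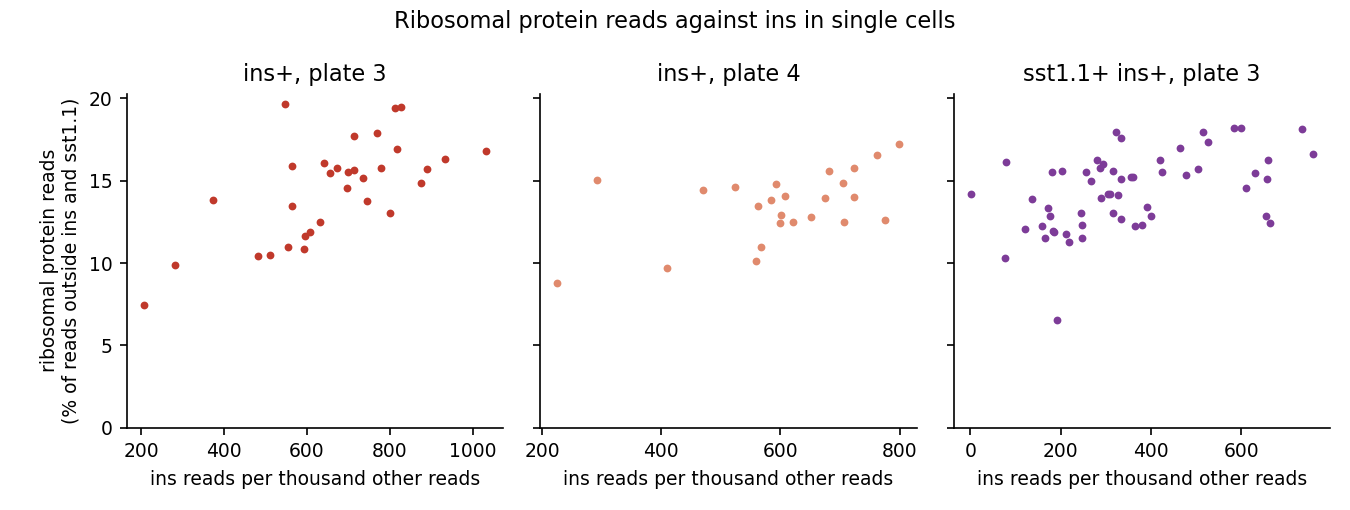
Each point is a cell; the horizontal axis gives ins reads per 1000 reads outside ins and sst1.1 and the vertical axis the percentage of those other reads that belong to ribosomal protein genes. The points rise to the right in all 3 panels, with a rho of 0.62, 0.43 and 0.50.

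Across sst1.1+ ins+ cells both hormones ran against each other. The rho between ins and sst1.1 was -0.47 over 57 cells when both were set against the other reads, and -0.66 when both were in the total, where they dilute each other. It was -0.34 in the 45 cells with at least 5% of reads in each hormone and -0.67 in the 50 cells with few reads of other hormones. Per spike-in read it was 0.01, so the negative value belongs to shares of reads and was not seen relative to the spike-in. On that scale the median rho of all genes with ins was 0.22, against -0.01 when set against the other reads. The cells with most ins, C8 at 415809 CPM and B6 at 407755 CPM, held 18392 and 54211 CPM of sst1.1. The cells with least ins, F1 and F2, held 383405 and 335397 CPM. The EGFP row had a rho of -0.03 with ins and 0.25 with sst1.1. The number of detected genes had a rho of -0.38 with ins, and given that number the rho of ins and sst1.1 was -0.45.

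**Figure D4:**
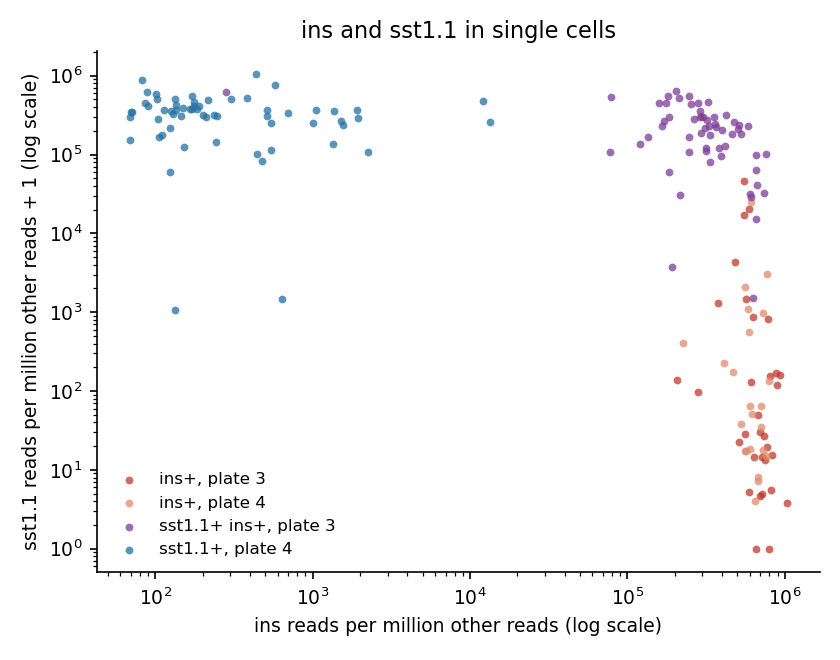
Each point is a kept cell, with ins and sst1.1 reads per 1e6 reads outside both, on log axes. The sst1.1+ ins+ cells fill the upper right, with a rho of -0.47 between both hormones, and 1 of them (well F1) lies among the sst1.1+ cells at 281.5 ins reads per 1e6 other reads.

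The gene that followed ins most closely in the double-labelled cells was ndufa4l2a, named in zebrafish after the mammalian NDUFA4L2, a protein of mitochondria. Its rho was 0.69 over 57 cells, and 0.56 to 0.72 under the alternatives listed for this gate, the spike-in scale included. In ins+ cells it had a rho of 0.02 on both plates although its level varied there from 292 to 3357 per 1e6 other reads on plate 3. Its median was 1655 (plate 3) and 1220 (plate 4) per 1e6 other reads in ins+ cells, 746.9 in the sst1.1+ ins+ pool and 79.4 in the sst1.1+ pool. It thus lay between the single-labelled gates, as ins did, and varied with ins among the double-labelled cells.

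The others among the first 10 followers were si:dkey-151g10.6 (0.56), ppdpfb (0.55), rab3c, which encodes a small GTPase of secretory vesicles (0.54), and ribosomal protein genes, among them rps2, rpsa, rps6, rpl15 and rpl7 (0.48 to 0.56). All of the first 10 had a rho above 0 in both ins+ pools (all genes: 694 of 1264 and 743 of 1385). Their medians were 0.32 and 0.29, and 4 and 3 of them passed 0.4 (all genes: 5.85% and 4.04%). For ndufa4l2a the value was 0.02 on both plates, which is the median of all genes there. Of the 40 genes past 0.4 in the double-labelled cells, 22 are in the list of ribosomal protein genes. The list of 40 shared 14 genes with the 74 of ins+ cells of plate 3 (35% of the 40 and 18.9% of the 74) and 6 with the 56 of plate 4 (15% and 10.7%). Over all genes read in a pool, 5.85% passed 0.4 on plate 3, 4.04% on plate 4 and 1.49% in the double-labelled gate. Genes of 1 list need not have been read in the other pool.

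The genes that ran against ins in these cells were mostly genes with higher levels in the sst1.1+ gate. The lowest was dkk3b, of the secreted Dickkopf family, at -0.65; its rho with sst1.1 was 0.77. It was followed by the integrin gene itga6b (-0.60), sst1.2 (-0.54), the kinase gene pim1 (-0.53), the peptide YY gene pyyb (-0.52) and HHEX (-0.51), a homeobox gene that mouse delta cells need. Next were pnoca, a nociceptin precursor gene (-0.48), the phosphatase gene dusp1 (-0.47), the recoverin-like RCVRN (2 of 2) (-0.46) and the cadherin gene cdh2 (-0.44). Of these 10 genes 7 were too sparse to be read in either ins+ pool, with a median of 0 CPM in both. The summed reads of gcga, gcgb, sst1.2, sst2 and ghrl also ran against ins, with a rho of -0.68. Taken alone only sst1.2 did so, while gcga had 0.21, gcgb -0.004, sst2 -0.01 and ghrl 0.14. These hormones are also part of the total against which ins was set.

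Levels on plate 4, which share no cell with the double-labelled gate, were then set beside these values; this reading was added after the rho values were seen. The level used here is the reads of a gene summed over the cells of a pool, per 1e6 summed other reads. It can rest on few cells: dkk3b stood at 477.9 in ins+ cells of plate 4, where the median cell held 157. On this scale, 1042 of all 2678 genes read were higher in sst1.1+ than in ins+ cells. Of the 40 genes that followed ins 0 were higher, and 9 were at least 2-fold lower, against 13.8% of all genes. These 9 were among the 18 outside the list of ribosomal protein genes, which was matched by symbol. They included rab3c (161.5 in ins+ and 2.55 in sst1.1+ cells), ndufa4l2a (1595 and 134.9), the POU factor gene pou2f2a (99.2 and 8.47), pcxb, a pyruvate carboxylase gene (807.8 and 80.05), cd164 (1319 and 157.5) and pcsk1, a prohormone convertase gene (1976 and 436). Of the 25 genes against ins, 24 were higher in sst1.1+ cells and 18 at least 2-fold higher, against 9.63% of all genes. They included dkk3b (477.9 and 7830), itga6b (19.6 and 473.3), pyyb (106.5 and 1962), HHEX (1.54 and 91.07) and the homeobox gene pbx3b (28.7 and 289.7); mtap was the 1 gene lower in sst1.1+ cells (62.2 and 35.1). Against the ins+ cells of plate 3, 10 of the 40 were at least 2-fold lower and 17 of the 25 at least 2-fold higher. Some smaller differences turned there. Of the followers, sumo3a (294.6 on plate 3 and 297.2 in sst1.1+ cells), srsf5b (33.47 and 58.73) and ap1m1 (21.9 and 33.01) were higher in sst1.1+ cells. Of the genes against ins, cwc15 (68.29 and 46.14), kdm5bb (79.98 and 51.39), sf1 (155.5 and 108.4) and mtap (44.42 and 35.13) were lower. Within the double-labelled gate, cells with more ins per other read thus held more reads of genes mostly higher in ins+ cells. They held fewer reads of genes mostly higher in sst1.1+ cells. Whether wells with 2 cells had a part in these values was not tested. In the 45 cells with at least 5% of reads in each hormone, ndufa4l2a (0.61), rab3c (0.52), dkk3b (-0.62), itga6b (-0.50) and pyyb (-0.45) stayed past 0.4 in size. There pcsk1 (0.26), scg3 (0.35), pcxb (0.36), HHEX (-0.36) and sst1.2 (-0.22) kept their sign but fell short of it. In those cells 51 genes followed ins and 16 ran against it, beside 40 and 25 over all 57 cells. Set per spike-in read, no gene ran against ins at -0.4 and dkk3b had a rho of 0.00382, while with all gene reads as the total 29 genes ran against ins and dkk3b had -0.75. Values past -0.4 were thus seen in shares of reads, with either total, and not relative to the spike-in. On the spike-in scale the median rho over all genes was 0.22, against -0.01 in the main setting. There dkk3b, HHEX (-0.03), itga6b (-0.07) and pyyb (-0.12) still lay under that median.

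**Figure D5:**
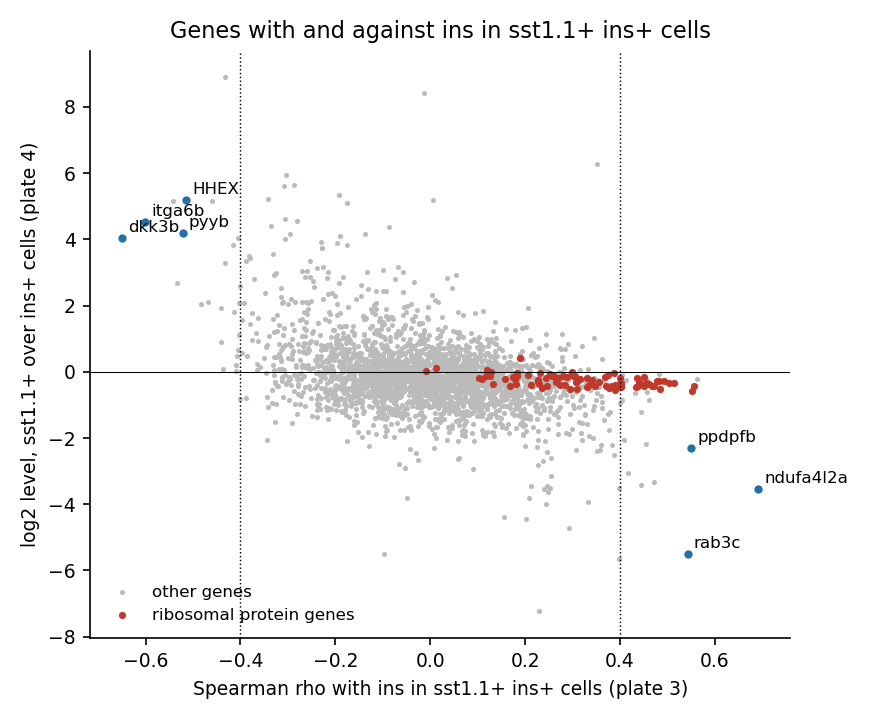
Each point is 1 of 2678 genes. The horizontal axis gives its Spearman rho with ins over 57 sst1.1+ ins+ cells of plate 3. The vertical axis gives the log2 ratio of its levels in sst1.1+ over ins+ cells of plate 4. Levels are summed reads of the pool per 1e6 summed other reads, with 1 added to both. Dotted lines mark 0.4 in size. Right of 0.4 none of 40 genes lies above 0, and left of -0.4 all but 1 of 25 lie above 0.

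Genes that control or process insulin followed its level only in part. Among islet transcription factors, 29 members of the list were in the table and 11 were read in ins+ cells of either plate, 15 in the double-labelled gate and 10 in the sst1.1+ gate. None reached 0.4 in any pool, where 5.85%, 4.04%, 1.49% and 0% of all genes did, so 0 of so few members says little. HHEX alone passed -0.4, in the double-labelled gate (all genes: 0.934%). The insulin activator pdx1 had a rho of -0.0011, 0.09 and 0.23 in the first 3 pools and was read in most cells, with 1154, 1148 and 1026 CPM in the median cell and 1243 in sst1.1+ cells. The beta-cell homeobox gene mnx1 had 0.38, -0.21 and 0.16, nkx6.2 -0.22, 0.13 and 0.23, neurod1 0.07, 0.04 and 0.18, and insm1b 0.20, 0.04 and -0.05. In sst1.1+ cells nkx6.2 had 0 reads and mnx1 had at least 5 reads in 5 of 61 cells.

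Granule and processing genes had list medians of 0.24, 0.21 and 0.07 in the first 3 pools, against 0.02, 0.02 and -0.01 over all genes. In ins+ cells 2 of 17 members passed 0.4 on plate 3 and 4 of 17 on plate 4 (all genes: 5.85% and 4.04%). In the double-labelled gate 3 of 21 did (all genes: 1.49%). The plate 3 count is too small to set the list apart. The convertase gene pcsk1 had 0.40, 0.32 and 0.45, with 909.6, 1251 and 328.7 CPM in the median cell. The second convertase gene, pcsk2, had 0.28, -0.18 and 0.12. The granule protein gene scg3 had 0.25, 0.56 and 0.43, and rab3c had 0.34, 0.14 and 0.54. The remaining members past 0.4 in a pool were scg2b on plate 3 (0.42), and pcsk1nl (0.42), scg2a (0.42) and pam (0.49), which encodes the enzyme that amidates peptide ends, on plate 4. None of these 4 passed in sst1.1+ ins+ cells, where scg2b had -0.27.

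Of the genes for glucose sensing, the glucose sensor gck had a rho of 0.18, 0.36 and -0.04 in the same 3 pools, the glucose transporter slc2a2 -0.20, -0.23 and 0.20, and pcxb 0.10, 0.26 and 0.47. The channel subunit gene abcc8 was too sparse to be read in ins+ cells of plate 3 and had 0.19 on plate 4 and -0.22 in the double-labelled gate. The members of this list past 0.4 were 0 of 6, 0 of 7 and 1 of 8 (all genes: 5.85%, 4.04% and 1.49%), too few to set the list apart. The list of translocation and folding in the endoplasmic reticulum had 0 of 17, 0 of 19 and 0 of 26 members past 0.4. Over all genes the shares were 5.85%, 4.04% and 1.49%, so 0 in a list of this size says little. The list medians were -0.06, -0.04 and -0.11, against 0.02, 0.02 and -0.01 over all genes. The chaperone gene hspa5 had -0.21, -0.11 and -0.32. In the median cell hspa5 stood at 170.2 and 135.6 CPM in ins+ cells of plates 3 and 4, 682.7 in the sst1.1+ ins+ gate and 1871 in the sst1.1+ gate. Between gates it was thus lower where ins was higher. Between the ins+ pools, plate 3 had more of both. These are 4 pools that differ in gate and plate, too few for an order.

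Genes induced by stress or by dissociation had mostly negative values in the double-labelled gate and in the ins+ pool of plate 3. In sst1.1+ ins+ cells 1 of 26 members of that list had a rho above 0 (1288 of 2678 over all genes), with a median of -0.23, and dusp1 passed -0.4. In ins+ cells 0 of 10 on plate 3 (694 of 1264 over all genes) and 5 of 14 on plate 4 (743 of 1385) were above 0, with medians of -0.24 and -0.08, and dnajb1b, a co-chaperone gene, passed -0.4 on plate 4 at -0.47. In sst1.1+ cells 13 of 26 were above 0 (661 of 1880 over all genes), with a median of -0.0021. In the list of the unfolded protein response, ppp1r15a had -0.42 on plate 3. None of 13 mitochondrial genes passed 0.4 in size in any pool, and of the insulin signalling genes 3, 3, 6 and 4 were read, none past 0.4 in size. Over all genes, 0% to 5.85% passed 0.4 and 0.213% to 1.73% passed -0.4 by pool, so these counts do not set the lists apart.

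Among the other hormones, sst1.2 had -0.41 on plate 3 and -0.22 on plate 4. On plate 4, ghrl had 0.53 and sst2 0.42 with ins, while on plate 3 they had -0.31 and -0.06. Both were low on plate 4, with median ghrl reads of 31.5 per cell and a summed sst2 level of 14.9 CPM. Both were high in the 11 wells under the cell filter, with summed levels of 107973 and 27452 CPM. The part of such background in these values was not tested. The glucagon genes gcga and gcgb had 0.03 and -0.16 on plate 3, -0.18 and -0.27 on plate 4, and 0.21 and -0.004 in sst1.1+ ins+ cells. In the ins+ gate, summed delta cell markers had a rho with ins of -0.49 on plate 3 and -0.25 on plate 4. In the double-labelled gate it was -0.57. All 7 markers had reads in every pool but the ins+ pool of plate 4, where elf3 had 0 reads. The list holds sst1.1 itself. In the double-labelled gate the median of sst1.1 was 128368 CPM, beside 140470 CPM for the summed list. The -0.57 is therefore not separate from the rho of -0.47 between ins and sst1.1. Summed alpha cell markers had a rho with ins of 0.14, -0.18 and 0.15 in the same 3 pools, with irx2a and irx3a at 0 reads in every pool.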

How the data were processed

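Single cells of 30 days post fertilization zebrafish pancreas were sorted and read with Smart-Seq2. The authors deposited 1 table of raw counts, 1 column per cell, with no normalization; the submitters' processing notes name Trim Galore, HISAT2, the GRCz11 build and featureCounts. Tool versions and strandedness are not stated there. The table holds 31953 genes, 92 spike-in rows and an EGFP row. Spike-in rows (5.61% of reads) stayed out of totals. The row AC024175.4, whose identity the table does not give, took 9.02 to 11.05% of reads in the pools' median cell and stayed in the totals. No pair of cells held identical counts, and no doublet caller was run.

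The title of each sample gave its gate and plate. The filter removed cells with under 500 detected genes or 50000 gene reads. CPM, medians with exact binomial order-statistic intervals, Clopper-Pearson shares and Spearman's rho over cells were computed with Python 3.11.15, NumPy 2.4.6, SciPy 1.17.1 and pandas 2.3.3. No test was made, since each gate on each plate is 1 sample. For rho, totals left out ins and sst1.1. The steps were tested on simulated counts.

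The gene, the lists and the rules were chosen with earlier results of these data known. Named genes were the 10 with the largest smaller rho and the 10 with the smallest larger rho over both ins+ pools, the 10 highest and 10 lowest in sst1.1+ ins+ cells, list members past 0.4 in size in any pool, and 15 genes of insulin production always given. Other genes past 0.4 in sst1.1+ ins+ cells, and the cells named by well, were chosen after their values were seen. Of 350 listed symbols 326 matched the table, 10 by gene ID and 3 without regard to case; 11 were not found. Among the genes taken by the rule for named genes, 1 is not reported here.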

Additional observations from a re-analysis of the deposited data

Results flagged for a closer look

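Most wells that hold too few reads to count as cells carried a strong ins signal. Of the 12 wells under the cell filter, 11 held at least 10% of their gene reads in ins, and their summed level was 172203 CPM. They came from every gate, 4 of them from the sst1.1+ gate, whose 61 kept cells had a summed level of 549.4 CPM. They held 1745 to 7085 gene reads, of which 259 to 1222 were ins reads, and 97.7 to 98.5% of all their reads were spike-in reads, against a median of 2.19% in kept cells.

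The profile of these wells was mostly alike and was not that of any gate. The ghrelin gene ghrl stood at 107973 CPM, against 58.5 to 95.2 CPM in the 4 pools of kept cells, and gip, the gene of an incretin hormone, at 51908 CPM. The summed level of sst1.1 was 5449 CPM, with a median well of 4342 and a range of 1636 to 26635 CPM. Its highest well, F4 of the sst1.1+ gate, also held 90357 CPM of sst1.2 and 50236 of sst2. The medians of these genes over the wells were 33682 and 25765 CPM. The ratio of ins to ghrl reads was 1.435 to 1.77 in the 11 wells. In sst1.1+ cells its median was 2.567, with 46 of 61 cells at up to 5 times the highest of the wells and 15 above that, while ins+ cells of plate 3 had 588.9 or more. The reads of gip per ghrl read were 0.485 in the wells and 0.455 in the median sst1.1+ cell. In sst1.1+ cells the rho of ghrl and spike-in reads was 0.53, and that of ins and ghrl reads was 0.21. The double-labelled cell of well F1, with 78 ins reads, had a ratio of 7.09. The source of these reads was not tested.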

How the results depend on the processing

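The design gave no test, so an alternative is set against the interval of the median, against 1.5 times a count or against 0.1 in rho. Leaving AC024175.4 out of the total gave medians of 446455 and 413923 CPM in ins+ cells of plates 3 and 4; counting spike-in reads gave 359930 on plate 4; and summing reads gave 549.4 CPM in sst1.1+ cells. With all gene reads as the total, the genes following and against ins numbered 0 and 2 in both ins+ pools and 7 following in sst1.1+ ins+ cells (main values 13, 0 and 40), ins and sst1.1 had -0.66, ins and ribosomal protein reads 0.28, 0.0896 and 0.18 in the 3 pools with ins, and sst1.1 with them -0.0205 in sst1.1+ cells, a change of sign. With spike-in reads as the total, 142 and 276 genes followed, 0 ran against ins in sst1.1+ ins+ cells (main value 25), ins and sst1.1 had 0.0128, a change of sign, and the ribosomal values were 0.84 and 0.73 in ins+ cells. With Pearson's r the counts were 21 following and 4 against in sst1.1+ ins+ cells and 1 against in ins+ cells, ins and sst1.1 had -0.32, and the ribosomal values were 0.74, 0.54 and 0.24, and 0.73 for sst1.1. Given the number of detected genes, 20 followed in ins+ cells and 14 ran against ins in sst1.1+ ins+ cells. From 1 read in 25% of cells, 1 and 66 ran against, and after thinning 12 did in the latter. Without cells rich in other hormones, 5 followed in ins+ cells, 39 ran against ins in sst1.1+ ins+ cells and ins and sst1.1 had -0.67. Without the extreme cells, 2 followed and 1 ran against in ins+ cells, 15 ran against in sst1.1+ ins+ cells, and the ribosomal value of plate 4 was 0.26. In cells with at least 5% of each hormone, 16 ran against and ins and sst1.1 had -0.34. At a limit of 0.5, 1 followed in ins+ cells, and 8 followed and 6 ran against in sst1.1+ ins+ cells. With the other hormones out of the total, chosen after seeing the data, 5 and 16 followed, and the ribosomal values were 0.37 in sst1.1+ ins+ cells and 0.39 for sst1.1 in sst1.1+ cells. The causes were not tested, apart from the limit of 0.5, which keeps fewer genes by construction. No paired analysis was possible because replicate numbers only name cells and no test was made.

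Each gate on each plate is 1 sample, plates and gates overlap in the ins+ gate alone, and rho over 24 to 61 cells of 1 sample does not show how other fish would vary. Low ins counts limit the sst1.1+ cells most, whose median was 86 ins reads, or 16 after thinning to 100000 gene reads.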

Other observations

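Wells C4, D4 and E4 of plate 4, neighbours in 1 column, were the 3 sst1.1+ cells with the most ins, with 1003, 2936 and 5310 ins reads and 2021, 8075 and 10467 CPM. They held 98135, 320580 and 205541 CPM of sst1.1. Without them the median sst1.1+ cell stood at 133.3 CPM of ins.

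The genes for which rho with ins was read in several pools gave similar values only in part. Across 1082 genes the Pearson correlation of rho in both ins+ pools was 0.30, across 1254 genes that of plate 3 ins+ and sst1.1+ ins+ cells was 0.32, across 1357 genes that of plate 4 ins+ and sst1.1+ ins+ cells was 0.21, and across 1131 genes that of plate 3 ins+ and sst1.1+ cells was -0.03. These are correlations across genes, which are not independent replicates, and no pair of pools shares a cell.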
